A study of Mus musculus with 17 samples.

Results

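The major urinary protein (Mup) genes and pseudogenes were followed in hepatocytes sorted by FACS from mouse livers. They were taken as every row of the count table whose Ensembl identifier matches a symbol of Mup followed by a digit, or Mup-ps. This gave 41 of 23461 genes, of which 21 are annotated as protein coding and 20 as pseudogenes. In GENCODE M21 on mm10, 40 of the members lie on chromosome 4 between 59956804 and 62150863, a span of 2.19 Mb, and Mup-ps22 lies on chromosome 11 (55123695 to 55123937). The annotation holds 49 names of this form, and the other 8 were not analysed here.

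MUPs are small secreted lipocalins, proteins folded into a barrel that holds a greasy ligand. In the adult male mouse the liver secretes them into the blood, the kidney passes them into urine, and there they release bound volatile pheromones and act as scent signals themselves. Their liver transcription is known to depend on pulsed growth hormone acting through its receptor and STAT5, and also on glucocorticoid, thyroid and sex hormones. The coding genes are usually split into a central class of near-identical copies and a peripheral class, here Mup3, Mup4, Mup5, Mup6, Mup20 and Mup21, with more diverged sequences. Mup20 encodes darcin, the male urinary pheromone.

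The samples came from male mice aged 2 to 3 months, either wild type or Yap/Taz knockout (Yap/Taz KO), that is lacking the transcriptional coactivators that the Hippo pathway restrains. Mice were left untreated or were given carbon tetrachloride (CCl4), a solvent toxic to the liver, at 1 ug/g in 7 doses 3 days apart, and cells were collected 3 days after the last dose. Wild type mice gave 5 untreated samples and 5 after CCl4, and knockout mice gave 4 and 3. What drives the knockout, its allele, the strain and any vehicle were not given in the sources used here. Since the labels do not say that each sample came from its own animal, the spread between samples may be partly technical. Yap1 ran from 37.4 to 73.5 CPM in the 10 wild type and from 0.536 to 8.03 CPM in the 7 knockout samples, and Wwtr1, which encodes TAZ, from 9.85 to 23.4 and from 1.20 to 7.08 CPM.

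The sequences decide how far single members can be told apart, so they come before the values. Pairwise identity of the coding sequences was 98.3% to 100% among the 15 central genes (median 99.3% over 105 pairs). Mup9 and Mup18, with annotated coding lengths of 540 and 543 bases, were identical over the 540 aligned bases. Between a central and a peripheral gene the identity was 85.2% to 91.5% (90 pairs). Among the 6 peripheral genes it was 85.6% to 96.3% (15 pairs), the closest being Mup3 and Mup21. The stretches below are 60 bases of 1 coding exon on the minus strand of chromosome 4, with capitals where a base differs from Mup10 after alignment. They are shown because genes with large changes after CCl4 in wild type (Mup7, Mup14, Mup19) and genes with smaller ones (Mup9, Mup10, Mup20, Mup3) can be set side by side. All of the central ones differ from Mup10 by 1 or 2 bases, Mup20 by 10 and Mup3 by 14.
Mup7, chr4:60069741-60069800: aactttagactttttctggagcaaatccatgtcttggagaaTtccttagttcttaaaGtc
Mup14, chr4:61303330-61303389: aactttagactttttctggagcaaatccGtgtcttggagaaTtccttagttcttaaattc
Mup9, chr4:60421327-60421386: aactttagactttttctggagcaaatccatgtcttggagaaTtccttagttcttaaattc
Mup19, chr4:61781599-61781658: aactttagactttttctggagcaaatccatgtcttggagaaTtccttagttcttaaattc
Mup10, chr4:60581529-60581588: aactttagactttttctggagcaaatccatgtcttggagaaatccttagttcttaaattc
Mup20, chr4:62053488-62053547: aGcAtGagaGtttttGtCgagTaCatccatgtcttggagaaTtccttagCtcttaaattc
Mup3, chr4:62086808-62086867: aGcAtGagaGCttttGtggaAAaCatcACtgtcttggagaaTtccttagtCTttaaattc

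Over whole GENCODE transcripts, 100% of the 100-base words of Mup4 and Mup6, 98.7% of those of Mup5, 97.8% of those of Mup3 and 95.5% of those of Mup21 occurred in no other gene. For Mup20 the share was 61.2%, because 38.8% of its words also occur in the pseudogene Mup-ps19. Among central genes it was 28.1% for Mup9, 26.6% for Mup10, 24.3% for Mup14, 23.9% for Mup7, 12.9% for Mup18, 2.66% for Mup15 and 0% for Mup19, whose closest partner is Mup9. How reads that match several members were assigned was not given in the sources used here. Counts of a single central gene are therefore uncertain, whereas Mup3, Mup4, Mup5, Mup6, Mup21 and the sums can be read with less doubt.

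Promoter windows from RefSeq (GRCm38.p6) matched 14 of the 21 coding members. All 14 contained AGACCCATA, which 0.181% of 27025 promoter windows of the same length hold, and 13 contained TATATAA, against 3.46% of all windows (both strands searched). The STAT5-type pattern TTCNNNGAA was in 0 of the 14 and in 8.47% of all windows. A match or its absence describes only the letters in these windows. The promoter stretches from AGACCCATA to TATATAA (in capitals) are shown for 4 central genes and for 4 peripheral genes, since both classes were lower together after CCl4. The 4 central stretches shown ran from 77 to 86 bases and were rich in runs of A, and the 4 peripheral ones from 47 to 53 bases. Among central genes not shown, Mup14 had 75 and Mup2 had 87 bases.
Mup9, chr4:60421977-60422062, minus strand: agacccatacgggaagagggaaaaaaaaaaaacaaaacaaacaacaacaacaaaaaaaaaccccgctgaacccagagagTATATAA
Mup10, chr4:60582179-60582263, minus strand: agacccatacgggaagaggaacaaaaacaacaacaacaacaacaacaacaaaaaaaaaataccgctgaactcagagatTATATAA
Mup18, chr4:61674116-61674192, minus strand: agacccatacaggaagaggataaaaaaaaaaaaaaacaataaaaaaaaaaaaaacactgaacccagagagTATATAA
Mup19, chr4:61782249-61782330, minus strand: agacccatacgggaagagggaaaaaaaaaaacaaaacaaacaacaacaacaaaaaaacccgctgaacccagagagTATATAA
Mup4, chr4:59960690-59960742, minus strand: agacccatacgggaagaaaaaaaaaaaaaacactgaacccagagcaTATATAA
Mup6, chr4:60003408-60003458, plus strand: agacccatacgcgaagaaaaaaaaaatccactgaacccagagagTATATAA
Mup3, chr4:62087322-62087371, minus strand: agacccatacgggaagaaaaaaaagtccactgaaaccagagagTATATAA
Mup21, chr4:62150843-62150889, minus strand: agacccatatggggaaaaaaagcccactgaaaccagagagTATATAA

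Totals per sample ran from 11266420 to 24775863 counts. Hepatocyte markers (10 genes, Alb, Apoa1 and Ttr among them) summed to 62185 to 141799 CPM of the total counts, and each of them was detected in every group. Of all counts, mitochondrial transcripts took 30.7% in wild type untreated replicate 5 and 34.3% in knockout CCl4 replicate 3, against 1.98% to 20.1% elsewhere. Levels below are CPM, the counts scaled to a common library size, of the TMM-scaled library, and a gene was called at a Benjamini-Hochberg adjusted p under 0.05 in edgeR's quasi-likelihood F test over 13721 genes.

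Mup RNA made up several percent of the untreated libraries and was lower after CCl4 in both genotypes. The members held 3.80% to 11.3% of all counts in wild type untreated samples (median 6.82%) and 1.48% to 2.13% in wild type CCl4 samples (median 2.06%). In the knockout they held 3.79% to 14.8% untreated (median 8.01%), and 1.54%, 0.178% and 0.143% after CCl4. Summed over the 41 members, the wild type untreated samples had 86191, 76806, 123409, 37039 and 97710 CPM (84231 ± 31633, mean ± SD, n = 5). The wild type CCl4 samples had 16714, 18132, 18849, 18375 and 12807 CPM (16976 ± 2462, n = 5), and their mean log2 value was lower by 2.22 ± 0.31 (SE), that is 4.66-fold lower. Folds of sums here and below are differences of mean log2 values, so they differ from the ratio of the arithmetic means. No CCl4 sample reached the lowest untreated one, and the CCl4 samples lay within 1.47-fold of each other against 3.33-fold for the untreated.

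The knockout samples spread more widely. Untreated they had 33904, 172926, 91768 and 78030 CPM (94157 ± 58025, n = 4), a 5.10-fold range that spans the whole range of the wild type untreated samples. After CCl4, replicates 1, 2 and 3 had 13564, 1367 and 1670 CPM (5534 ± 6956, n = 3), so replicate 1 stood 9.92-fold above the lowest and fell inside the range of the wild type CCl4 samples. The mean log2 value of the knockout CCl4 samples was lower than that of the untreated ones by 4.68 ± 1.16 (25.6-fold), and no sample overlapped. Without knockout CCl4 replicate 1 this difference was -5.74. Since all groups are bulk samples, fewer cells of a type and less RNA per cell cannot be told apart. The sum was built from members chosen with these data in view and was given no test.

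**Figure D1:**
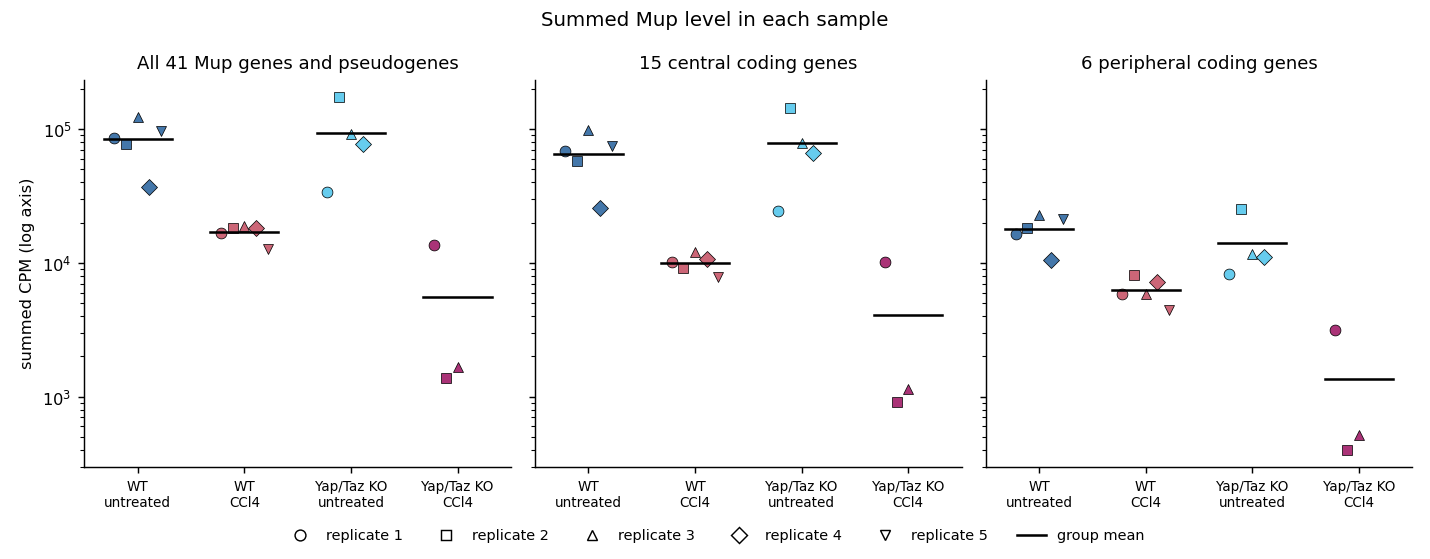
Summed CPM on a log axis for all 41 members, the 15 central and the 6 peripheral coding genes, with 1 symbol per sample (shape by replicate) and a bar at each group's arithmetic mean. The CCl4 samples lie below every untreated sample of their genotype in all 3 panels, and knockout CCl4 replicate 1 lies about level with the wild type CCl4 samples in the first and second panels.

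The central and peripheral classes fell by different amounts in wild type. The central sum went from 65110 ± 26401 to 9988 ± 1570 CPM (6.04-fold lower by mean log2 values) and the peripheral sum from 17769 ± 4779 to 6277 ± 1407 CPM (2.79-fold lower), n = 5 each. In the knockout the central sum went from 78411 ± 49483 to 4063 ± 5254 CPM (29.8-fold lower by mean log2 values) and the peripheral sum from 14102 ± 7701 to 1354 ± 1548 CPM (14.8-fold lower), n = 4 and 3. The difference between the classes was not tested.

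After CCl4 in wild type, 14 of the 35 members that passed the filter on low counts fell and none rose, against 0.277% of all tested genes called lower. The median log2 change was -2.55 over the 35 members and -0.01 over all tested genes, and 25 members had every CCl4 sample below every untreated one (1.69% of tested genes). By class, 9 of 15 central genes, 1 of 6 peripheral genes and 4 of 14 tested pseudogenes fell. The 6 members that were not tested are the pseudogenes Mup-ps3, Mup-ps10, Mup-ps11, Mup-ps14, Mup-ps16 and Mup-ps24, with 4 to 118 counts each over all 17 samples.

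Mup7 and Mup14, abundant central genes, fell most among the 6 most abundant members. Mup7 had 19344, 15251, 30717, 3601 and 21514 CPM in the wild type untreated samples and 585, 236, 554, 359 and 295 CPM after CCl4. Every CCl4 sample lay below the lowest untreated sample, replicate 4, and the fitted change was -5.48 ± 0.88 log2 (adjusted p = 0.00664). Mup14 went from 9846 ± 3752 to 648 ± 150 CPM (-3.93 ± 0.68 log2, adjusted p = 0.00975, n = 5 each).

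Mup19 and Mup17, minor central genes, fell further still in relative terms. Mup19 had 4060, 1788, 922, 404 and 329 CPM untreated and 4.42, 1.39, 10.5, 1.75 and 2.47 CPM after CCl4 (-8.49 ± 1.05 log2, adjusted p = 0.00164). Its untreated samples spanned 12.3-fold, and even the lowest was above every CCl4 sample. Mup17 had 30.3 to 653 CPM untreated (median 105) and 2.00 to 4.05 CPM after CCl4 (-6.67 ± 1.01 log2, adjusted p = 0.00439). Mup15, chosen after its values were seen, had 105 to 2799 CPM untreated and 0 counts in all 8 CCl4 samples of both genotypes, which allows up to 0.107 to 0.236 CPM per library. Against a floor of 3 counts over the group it was at least 38385-fold lower in wild type and at least 13432-fold lower in the knockout. Both bounds pool the untreated counts of a group, and 1 library dominated them. Replicate 3 gave 44601 of 70694 counts in wild type and 38120 of 45357 in the knockout. The knockout untreated samples ran from 8.99 to 2093 CPM. As 0% to 2.66% of the words of Mup15 and Mup19 are unique, these values also depend on how reads shared with other members were placed.

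Mup9, Mup10 and Mup18, which are also central, were lower by less. Mup9, the member with the highest mean, had 9757 to 32190 CPM untreated and 3174 to 5034 CPM after CCl4 (-2.38 ± 0.58 log2, adjusted p = 0.0707). Mup10 had 7045, 7190, 6669, 5258 and 5737 CPM untreated and 3306, 3311, 3898, 3834 and 2721 CPM after CCl4 (-0.90 ± 0.44 log2, adjusted p = 0.357). For both genes the groups did not overlap although neither was called. Mup18, with 130 to 447 CPM untreated and 94.4 to 210 CPM after CCl4, overlapped (-0.995 ± 0.481 log2, adjusted p = 0.351).

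Of the peripheral genes, only Mup21 was called in wild type, while all 6 had negative fitted changes. Mup21 had 176, 244, 318, 154 and 285 CPM untreated and 23.5, 31.9, 40.6, 25.7 and 25.9 CPM after CCl4 (-2.99 ± 0.50 log2, adjusted p = 0.00786). Mup3, the most abundant peripheral gene, had 9847, 11438, 9972, 7280 and 9174 CPM untreated and 3053, 3425, 2882, 3335 and 2308 CPM after CCl4. The 2 groups were wide apart, and the change of -1.67 ± 0.39 log2 had an adjusted p of 0.0546. Mup20, the darcin gene, had 3013 to 12393 CPM untreated (median 6405) and 2078 to 4584 CPM after CCl4, with overlap (-1.30 ± 0.59 log2, adjusted p = 0.314). Mup6 went from 31.7 ± 12.8 to 8.68 ± 2.97 CPM, with no overlap (adjusted p = 0.127).

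Mup4 and Mup5, known mainly from glands of the head and not from liver, were near 2 CPM. They had 2.08 ± 0.972 and 2.24 ± 1.15 CPM untreated and 0.527 ± 0.176 and 0.357 ± 0.101 CPM after CCl4 (n = 5 each), without overlap, and adjusted p values of 0.132 and 0.0540. Calls of single members moved with libraries outside this comparison, and the cause was not tested. Without knockout CCl4 replicate 1, for example, 19 of 37 tested members were called, Mup3, Mup9 and Mup6 among them, against 50 of 14484 tested genes called lower in that fit. With the 10 wild type samples alone 22 of 30 were, against 69 of 12178 genes.

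After CCl4 in the knockout, 29 of 35 tested members fell and none rose, against 6.96% of all tested genes called lower. The median log2 change was -4.10, or -3.96 with members at 0 counts set to their bound, and 0.01 over all tested genes. In 31 of the 41 members every CCl4 sample lay below every untreated sample, against 10.8% of tested genes. All 6 peripheral genes, 14 of 15 central genes and 9 of 14 tested pseudogenes fell. Mup2, the remaining central gene, had -1.62 ± 0.61 log2 (adjusted p = 0.0781) and was chosen after its values were seen. Of the 14 members called in wild type, 13 were also called in the knockout.

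Mup3 had 4078, 11240, 7312 and 7639 CPM in the knockout untreated samples and 1243, 207 and 283 CPM after CCl4 (-3.71 ± 0.53 log2, adjusted p = 0.000392). Mup20 had 4058, 14029, 4283 and 3372 CPM untreated and 1880, 192 and 235 CPM after CCl4 (-3.06 ± 0.78 log2, adjusted p = 0.0113). In both, replicate 1 was the highest CCl4 sample and the groups stayed apart. Mup6 fell from 37.7 ± 17.7 to 1.96 ± 2.75 CPM (-4.27 ± 0.78 log2, adjusted p = 0.00143). Mup21 had 77.5, 96.3, 28.8 and 25.1 CPM untreated and 10.7, 1.36 and 1.81 CPM after CCl4 (-3.63 ± 0.67 log2, adjusted p = 0.00149).

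The abundant central genes Mup7, Mup9, Mup10 and Mup14 fell in the knockout with the same split between replicates. Mup7 had 7731, 46905, 27137 and 25323 CPM untreated and 1729, 56.6 and 116 CPM after CCl4 (-5.40 ± 1.12 log2, adjusted p = 0.00318). Mup10 had 3014, 9170, 5181 and 4803 CPM untreated and 2292, 290 and 334 CPM after CCl4 (-2.51 ± 0.58 log2, adjusted p = 0.00597). Mup14 also fell (-4.58 ± 0.89 log2, adjusted p = 0.00216), as did Mup9 (-4.10 ± 0.79, adjusted p = 0.00206). Mup18, a less abundant central gene, fell too (-3.93 ± 0.68, adjusted p = 0.00104). Its CCl4 replicates 1, 2 and 3 lay closer together, at 37.7, 26.5 and 13.3 CPM. The call of Mup20 was lost without knockout CCl4 replicate 3, and with the 7 knockout samples alone 16 of 30 tested members were called lower, against 284 of 12839 genes.

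**Figure D2:**
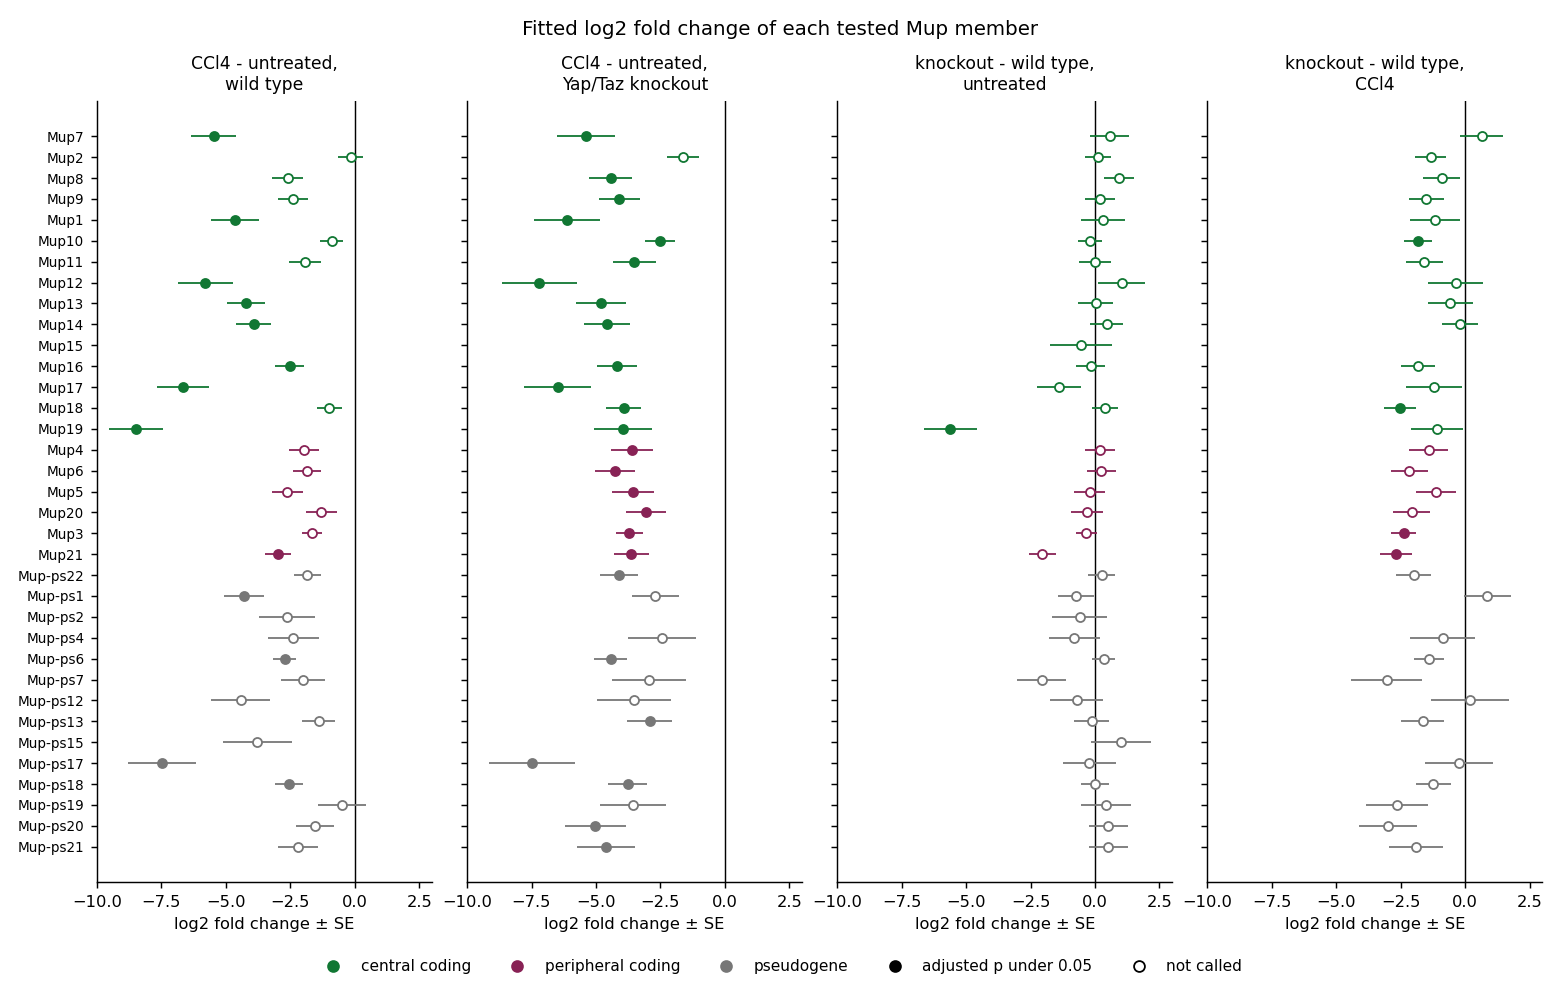
Fitted log2 fold change with its SE for the 35 tested members in 4 comparisons, coloured by class and ordered along the chromosomes within each class, with filled points for an adjusted p under 0.05. Values of a gene with 0 counts in 1 of the compared groups are left out. All points for CCl4 against untreated are negative in both genotypes, and Mup19 is the 1 filled point among those of knockout against wild type untreated.

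The mix of members shifted with CCl4 in wild type. Mup7 made up a median of 22.0% of the Mup sum in untreated samples (9.72% to 24.9%) and 2.31% after CCl4 (1.30% to 3.50%). Mup14 went from 11.6% to 3.89%. In the other direction, the share of Mup10 went from 8.17% to 20.7%, that of Mup20 from 8.34% to 16.4% and, with overlap, that of Mup3 from 11.4% to 18.1%. Mup9 stayed near a constant share, at 24.2% in both groups. The peripheral genes together rose from 21.6% (18.4% to 28.3%) to 34.9% (31.0% to 44.4%) of the sum, with no overlap, and the central genes went from 76.0% to 60.8%. These shares describe the mix within a falling total and were given no test.

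In the knockout the shift had the same direction. Mup7 held a median of 28.3% untreated and 12.7%, 4.14% and 6.94% in CCl4 replicates 1, 2 and 3. The share of Mup10 went from a median of 5.90% to between 16.9% and 21.2%, that of Mup20 from 6.39% to 14.1%, both without overlap. That of the peripheral genes went from 14.5% (12.7% to 24.3%) to 29.4% (23.1% to 31.2%), with overlap. Mup14 went from 12.9% to 10.2%, with overlap between the groups. Each knockout CCl4 replicate, including replicate 1 with its sum at the wild type level, had a larger share of Mup7 than any wild type CCl4 sample. The 6 most abundant members (Mup9, Mup7, Mup14, Mup3, Mup20 and Mup10) held 84.7% to 91.5% of the sum in every sample. Per kilobase of the longest annotated transcript, the order of these 6 in the untreated groups of both genotypes was Mup9, Mup7, Mup14, Mup3, Mup20 and Mup10, from 22803 to 6882 CPM per kb as wild type means. After CCl4 in wild type it was Mup9 (4368 CPM per kb), Mup10 (3683), Mup20 (3488), Mup3 (3049), Mup14 (700.3) and Mup7 (393). In the knockout after CCl4, Mup9 (1532), Mup10 (1048) and Mup20 (828.7) also came first.

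**Figure D3:**
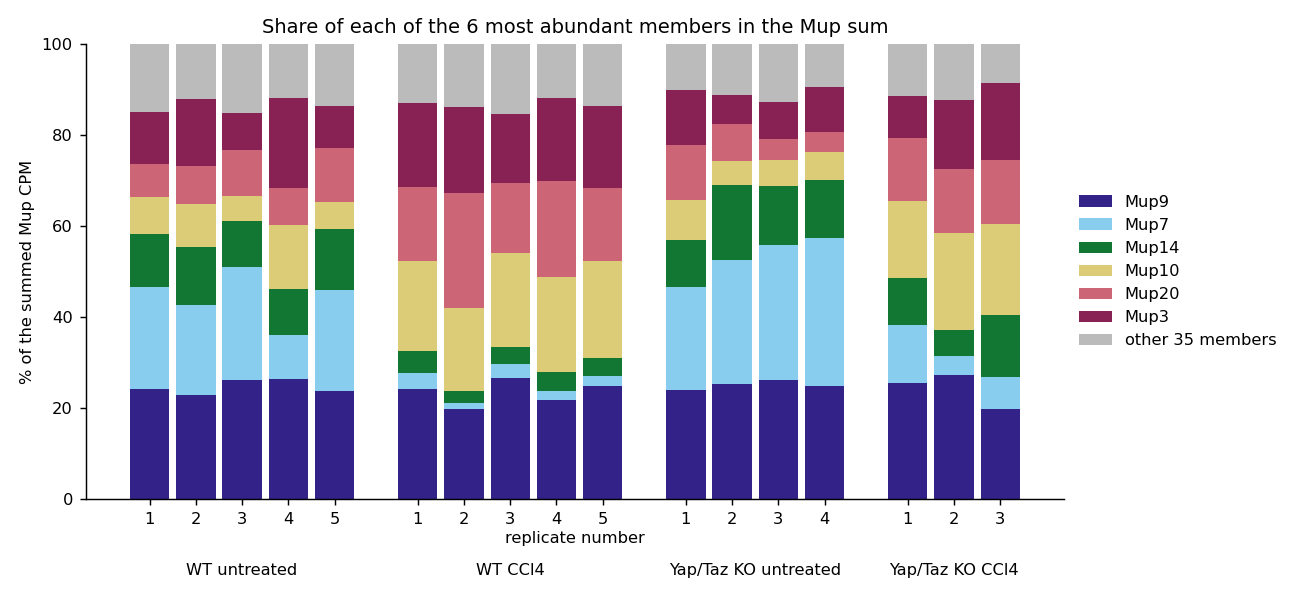
Share of the summed Mup CPM held by each of the 6 most abundant members and by the other 35 together, as 1 stacked bar per sample, grouped by genotype and treatment. The Mup7 segment shrinks from 9.72% to 24.9% in wild type untreated bars to 1.30% to 3.50% in wild type CCl4 bars, while Mup9 keeps 19.8% to 27.3% in every bar.

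Without CCl4, no difference in the Mup sum between knockout and wild type was detectable within the spread of the samples. The log2 difference was 0.04 ± 0.57 and ran from -0.33 to 0.45 when single libraries were left out, and 1 of 35 members was called lower (0.350% of tested genes were, and 0.933% were called in either direction) and none higher. That member was Mup19, with 22.4, 37.8, 24.9 and 38.5 CPM in the knockout against 329 to 4060 CPM in wild type (-5.60 ± 1.02 log2, adjusted p = 0.00806). Mup21 was the only other member whose samples did not overlap, with at most 96.3 CPM in the knockout and at least 154 CPM in wild type (-2.05 ± 0.53 log2, adjusted p = 0.0933). Samples of 1.89% of tested genes were separated in this way. The Mup21 difference passed the threshold without knockout CCl4 replicate 1 or 2.

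After CCl4, 4 of 35 members were lower in the knockout than in wild type and none higher, against 4.21% of tested genes called lower and 7.62% higher. The sum differed by -2.42 ± 1.06 log2, with overlap through knockout CCl4 replicate 1. The peripheral sum did not overlap, with 3140, 402 and 520 CPM against 4419 to 8051 CPM (7.07-fold lower). The members called were the peripheral genes Mup3 (-2.38 ± 0.48 log2, adjusted p = 0.00520) and Mup21 (-2.68 ± 0.62, adjusted p = 0.0111), and the central genes Mup18 (-2.53 ± 0.62, adjusted p = 0.0147) and Mup10 (-1.81 ± 0.54, adjusted p = 0.0403). Mup6 and Mup20 had differences of -2.16 ± 0.70 and -2.07 ± 0.73 log2 and were not called (adjusted p = 0.0566 and 0.0765). In 9 members, all 3 knockout samples lay below all 5 wild type samples, against 7.97% of tested genes.

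This comparison turned on single libraries of the knockout CCl4 group. Without replicate 1, 20 of 37 tested members were lower in the knockout, with a median of -3.38 log2, while 805 of all 14484 genes tested in that fit were called lower. Without replicate 3, 1 of 37 tested members was, Mup3, while 169 of all 14239 genes tested in that fit were called lower. Mup18 and Mup21 lost their calls there. The adjusted p of Mup3 was at most 0.0433 whichever of the 17 libraries was left out. Mup10 lost its call on leaving out any wild type CCl4 sample, knockout untreated replicate 3 or 4, or CCl4 replicate 2 or 3 of the knockout.

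The CCl4 effect itself was compared between genotypes as a difference of log2 changes, knockout minus wild type. None of the 35 members was called by edgeR, 8 had an unadjusted p under 0.05, and the median difference was -1.51 log2 against 0.04 over all tested genes, of which 1.09% were called and 0.299% were negative calls. Mup18 had -2.94 ± 0.78 (adjusted p = 0.0683), Mup3 -2.04 ± 0.60 (0.0936) and Mup19, in the opposite direction, 4.53 ± 1.30 (0.0868). DESeq2 called 3 members, Mup18 and Mup3 as lower and Mup19 as higher, against 783 of 13721 tested genes, 251 of them lower. With limma voom 0 members were called, against 9 of all tested genes. Without knockout CCl4 replicate 1, 13 of 37 members were called, all negative, with Mup3 at -3.29 ± 0.40 log2, and 867 of 14484 tested genes were called, 347 of them negative. Without replicate 2, only Mup19 of 37 tested members was called, as higher, against 110 of 14147 tested genes, 18 of them negative. Over all tested genes the number called for this difference was 150 with all 17 samples and ran from 0 to 867 when single libraries were left out.

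**Figure D4:**
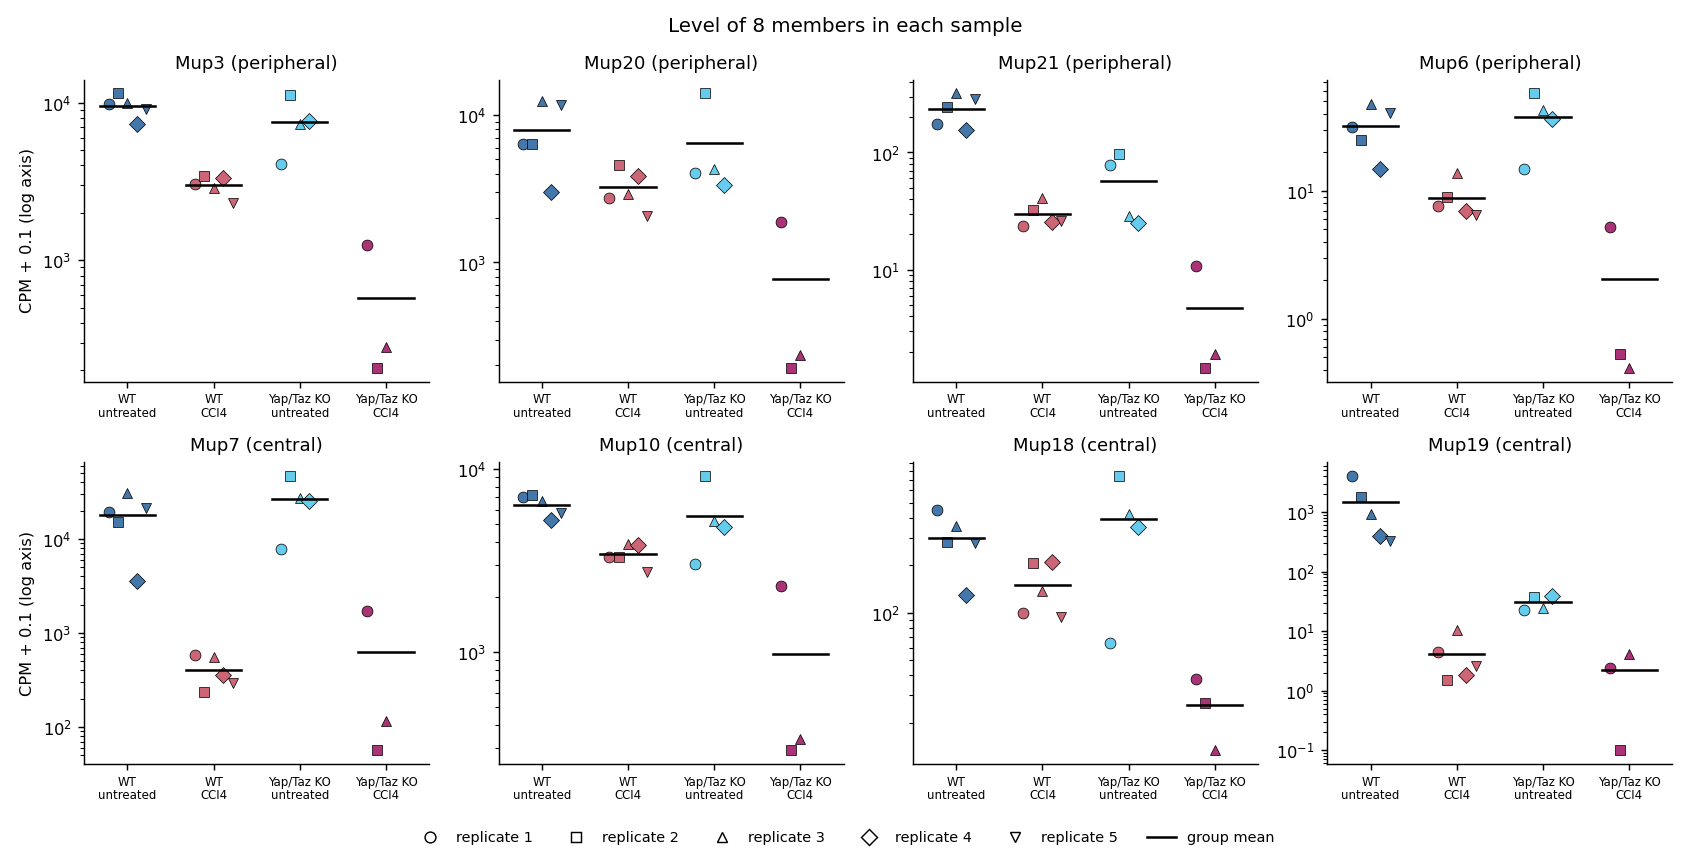
Level of 4 peripheral (top) and 4 central (bottom) members in each sample, as CPM with 0.1 added on a log axis, with symbols by replicate and a bar at each group's arithmetic mean. Knockout CCl4 replicate 1 lies above replicates 2 and 3 in every panel but that of Mup19, and Mup19 and Mup21 are lower in knockout than in wild type untreated samples.

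The pseudogenes gave few counts apart from Mup-ps19 and Mup-ps17. The 20 pseudogenes summed to 1352 ± 926 CPM in wild type untreated and 711 ± 234 CPM in wild type CCl4 samples, with overlap. In the knockout they summed to 1645 ± 1318 CPM untreated and to 296, 52.1 and 0.787 CPM after CCl4, with no overlap. In wild type Mup-ps19 made up most of this, with 992 ± 747 and 702 ± 232 CPM (1334 ± 1166 and 112 ± 152 CPM in the knockout), and 89.8% of its 50-base words also occur in Mup20. Mup-ps17, with 327 ± 303 and 1.80 ± 1.82 CPM, shares 21.8% of its 100-base words with Mup10. Both were chosen after their values were seen. Mup-ps6, named by its small adjusted p, fell from 3.74 ± 1.42 to 0.564 ± 0.196 CPM in wild type (-2.72 ± 0.45 log2, adjusted p = 0.00730) and from 4.73 ± 2.55 to 0.222 ± 0.144 CPM in the knockout (-4.44 ± 0.63, adjusted p = 0.000392). Mup-ps3 and Mup-ps11 have identical transcripts and had equal counts in 15 of 17 samples.

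Summed markers of other liver cells had higher group medians after CCl4 than without it in both genotypes, and were not tested as sums. Summed macrophage markers (12 genes, Adgre1, Clec4f and Cd68 among them) had 1.69 to 18.7 CPM in wild type untreated, 14.0 to 135 in wild type CCl4 and 0.294 to 9.09 in knockout untreated samples. In knockout CCl4 replicates 1, 2 and 3 they had 117, 360 and 4133 CPM, so the replicate with the high Mup sum had the lowest value of its group. Endothelial markers (12 genes) had 9.14 to 49.7, 48.2 to 215, 22.5 to 34.9 and 142 to 861 CPM in the same order of groups, and stellate cell markers (12 genes) 4.76 to 18.2, 21.4 to 93.9, 7.19 to 10.8 and 97.3 to 243 CPM. Lymphocyte and neutrophil markers reached at most 1.31 CPM outside the knockout CCl4 group and 51.6 CPM in its replicate 3, and erythroid and platelet markers 1.09 and 38.9 CPM. Cholangiocyte markers ran from 7.37 to 61.3 CPM untreated and from 43.5 to 84.2 CPM after CCl4. None of the macrophage or endothelial markers was at 0 throughout a group, while 4 of the 6 erythroid and platelet markers in the table were at 0 in all wild type untreated samples.

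Summed hepatocyte markers were 110977 to 133249 CPM in wild type CCl4 samples and 62185 to 123982 CPM in wild type untreated samples, so their level overlapped where the Mup sum did not. In knockout CCl4 replicates 1, 2 and 3 they were 141799, 127182 and 79779 CPM. Knockout CCl4 replicates 2 and 3 had Mup sums of 1367 and 1670 CPM, and 4.25% and 34.3% of their counts were mitochondrial. The wild type untreated sample with 62185 CPM, replicate 5, had 30.7%. Marker sums use totals that include these counts, so a high mitochondrial share lowers them. Without both libraries over 30% mitochondrial counts, the CCl4 difference of the Mup sum was -2.14 log2 in wild type and -4.22 in the knockout. The part of the other cell types in the Mup changes was not tested.

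**Figure D5:**
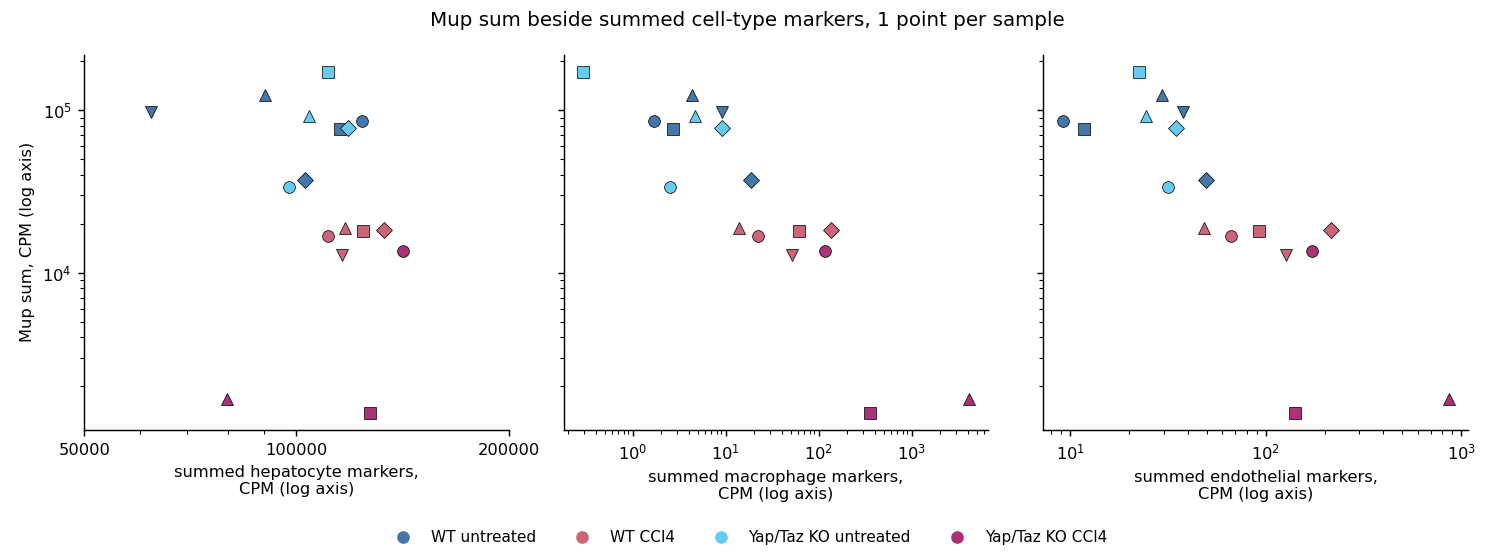
Mup sum against the summed hepatocyte, macrophage and endothelial markers of each of the 17 samples, both on log axes in CPM, coloured by group with symbols by replicate. Wild type CCl4 samples have lower Mup sums than untreated ones at similar hepatocyte marker sums, and knockout CCl4 replicate 3 has the highest macrophage value, 4133 CPM.

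Some of the other genes within the Mup span moved with it. Between the first and the last member on chromosome 4 the table holds 5 non-members, of which 3 were tested and 2, the processed transcripts Gm13775 (61783123 to 61801286) and Gm13773 (60502841 to 60521169), fell in both genotypes. Gm13775 had -3.69 ± 0.60 log2 in wild type (adjusted p = 0.00727) and -3.94 ± 0.81 in the knockout (adjusted p = 0.00304). Gm13773 had -2.44 ± 0.51 (adjusted p = 0.0309) and -3.71 ± 0.69 (adjusted p = 0.00161). The third, annotated as antisense, was not called. By position, the pseudogene Mup-ps6 (60517461 to 60520175) lies within Gm13773, and Mup-ps16 (61797482 to 61800237) within Gm13775. The strand setting of the counts was not given in the sources used here, so reads of overlapping genes on opposite strands cannot be told apart. The wild type call of Gm13773 was lost on leaving out any of 8 of the 10 wild type samples (all CCl4 replicates and untreated replicates 1, 2 and 3).

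Gm13773, which spans Mup-ps6, was also the gene whose pattern was most like the log2 Mup sum. Its Pearson r was 0.987 over 17 samples, among 7282 tested non-members with a mean of at least 10 CPM. The next were Cyp2d9 (0.958), a male-typical cytochrome P450, Alas2 (0.943), an enzyme of haem synthesis, Serpina1c (0.941) and Serpina3k (0.939), secreted protease inhibitors, and Hsd3b5 (0.940), a male-typical steroid enzyme. C9 (0.938), a terminal complement component, and Ugt2b5 (0.936), a conjugating enzyme, completed the 8. With each group's mean removed, r was 0.977 for Gm13773, 0.942 for C9 and 0.619 to 0.829 for the other 6. The samples share groups, library scaling and depth in these values, so they are a description only.

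Genes of the hormone pathway that sustains Mup transcription changed little in wild type. Of 25 listed regulators, all tested, 0 were called after CCl4 in wild type (background 0.853% in either direction), and in the knockout 3 fell and 1 rose (background 19.0%). Ghr, the growth hormone receptor, went from 433 ± 81.8 to 178 ± 91.7 CPM in the knockout (-1.28 ± 0.28 log2, adjusted p = 0.00437), Igf1, a target of that receptor, fell by 0.90 ± 0.19 log2 (adjusted p = 0.00390), and Cebpa, a liver transcription factor, by 1.16 ± 0.28 (adjusted p = 0.00874). Stat5a, one of the STAT5 genes, rose by 0.81 ± 0.25 (adjusted p = 0.0329), a call lost on leaving out any of 5 of the 7 knockout libraries (untreated 1, 2 and 4, CCl4 1 and 2). After CCl4, 1 of the 25 was called lower in the knockout than in wild type, against 4.21% of all tested genes. It was Ghr (-1.05 ± 0.27 log2, adjusted p = 0.0190). That call was lost without knockout CCl4 replicate 3, and scaling by library totals alone ended the calls of Ghr in both comparisons and of Igf1.

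Of 20 other male-typical liver genes, 4 fell after CCl4 in wild type (0.277% of tested genes were called lower) and 18 in the knockout (6.96%), with none rising. Hsd3b5 went from 205 ± 32.2 to 18.7 ± 10.6 CPM in wild type (-3.46 ± 0.47 log2, adjusted p = 0.00215) and from 149 ± 51.7 to 0.698 ± 0.850 CPM in the knockout (-7.79 ± 0.77, adjusted p = 2.16e-05). In wild type and knockout, Susd4 had log2 changes of -2.53 ± 0.32 and -2.78 ± 0.41, Cyp7b1, which hydroxylates oxysterols, of -2.57 ± 0.46 and -3.89 ± 0.62, and Gstp1, a glutathione transferase, of -1.42 ± 0.19 and -1.03 ± 0.23, all of them called. Among 14 tested female-typical genes, 2 rose in wild type (Cyp2a4 and Cyp3a44) and 4 in the knockout, against 0.576% and 12.1% of tested genes called higher. In the knockout, Cyp2a4, a steroid hydroxylase, went from 0.0751 ± 0.123 to 66.1 ± 37.3 CPM (adjusted p = 1.91e-05). The wild type call of Cyp2a4 was lost without untreated replicate 1, 2 or 3, and that of Cyp3a44 without untreated replicate 2 or 3 or CCl4 replicate 1, 2, 3 or 5. Both lists were chosen with earlier results of these data known.

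Of 25 genes for other abundant secreted proteins, 0 were called in wild type, and 9 fell and 2 rose in the knockout (6.96% of tested genes were called lower and 12.1% higher). Their median log2 changes were -0.24 in wild type and -0.40 in the knockout, against -2.55 and -4.10 for the Mup members. The protease inhibitors Serpina3k (-1.66 ± 0.29 log2, adjusted p = 0.00104) and Serpina1d (-1.34 ± 0.25, adjusted p = 0.00174) had the smallest adjusted p in the knockout. Among 11 other lipocalin and retinol-binding genes tested, 0 were called in wild type, and in the knockout 4 fell and 2 rose. Lcn2, a lipocalin that sequesters bacterial siderophores, went the opposite way to Mup, from 3.31 ± 1.61 to 439 ± 352 CPM (7.06 ± 1.00 log2, adjusted p = 0.000392), and Rbp4, the retinol carrier of plasma, fell by 0.83 ± 0.20 log2 (adjusted p = 0.00896).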

How the data were processed

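RNA-seq of 17 samples of sorted hepatocytes was deposited by the authors as 1 table of raw counts per Ensembl gene. Per the submitters' processing notes, tools included STAR 2.4.1d and the genome build was mm10, and the counter, the treatment of multiply matching reads, read length and strand were not given in the sources used here. Per the labels, RNA was prepared with Qiagen and NEBNext kits. Symbols came from GENCODE M21, which matched 22914 of 23461 identifiers.

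Counts were tested with edgeR 4.0.16 (R 4.3.3): TMM scaling, filterByExpr (minimum count 10, minimum total 15), a mean per group over all 17 samples, robust quasi-likelihood F tests and Benjamini-Hochberg adjustment over 13721 genes. SEs were obtained by dividing the absolute log2 fold change by the root of F. Sums add the members' TMM-scaled CPM, and marker sums use unscaled totals. The depth of 11266420 to 24775863 counts sets a floor of 3 counts per library, which covers counting error only. Alternatives were other scalings and filters, DESeq2 1.42.0, limma 3.58.1 voom, a replicate block, the groups of each contrast alone, and leaving out each library or both over 30% mitochondrial counts. The scripts were tested on simulated data. Genes named are the 6 most abundant members, the peripheral genes, the 3 called members with the smallest adjusted p per comparison, up to 4 called genes per list, the 8 genes most like the Mup sum and the called genes between members. Members and lists were chosen with earlier results of these data known. The word-sharing search was added after the data were seen.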

Additional observations from a re-analysis of the deposited data

Results flagged for a closer look

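Among the 4 knockout untreated samples, replicate 2 stood far from the others for 2 members. Mup5 had 4.87 CPM there against 0.746 to 1.43 CPM in the other 3 samples, and Mup20 had 14029 CPM against 3372 to 4283 CPM. The gap to the nearest sample, as a share of the group's range, was above Dixon's 95% critical value in both. Replicate 2 also had the highest Mup sum of all 17 samples, 172926 CPM. In all, 45 groups of values were checked, and chance flags about 1 in 20.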

How the results depend on the processing

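No called change of a named member changed direction under the alternatives. Values near 0 did: the Mup sum of knockout against wild type untreated ran from -0.33 to 0.45 log2 when single libraries were left out, and Mup7 in knockout against wild type after CCl4 went from 0.64 to -2.25 log2 without knockout CCl4 replicate 1, with no call in either. The sum ran from -2.49 to -2.06 for CCl4 in wild type, from -5.74 to -4.08 for CCl4 in the knockout and from -3.48 to -1.82 for knockout against wild type after CCl4. Members called lower after CCl4 in wild type (14) numbered 11 to 19 when single libraries were left out. They numbered 23 with DESeq2, 22 with the 2 groups alone and 8 with the replicate block. All tested genes called lower (38) numbered 24 to 60, 175, 69 and 16 in the same settings. In the knockout (29) the members numbered 25 to 33, and 16 with the 2 groups alone, where fewer samples entered. The matching counts over all tested genes (955) were 593 to 1132 and 284. For knockout against wild type untreated (1) the members numbered 1 to 2, and 2 with DESeq2 or limma voom. Lower calls over all tested genes (48) were 35 to 63, 173 with DESeq2 and 43 with limma voom. After CCl4, members called lower in knockout than wild type samples (4) numbered 1 to 20 when single libraries were left out. They numbered 9 with DESeq2, 11 with limma voom and 1 without both libraries over 30% mitochondrial counts. Lower calls among all tested genes (577) were 169 to 805, 822, 649 and 196 in the same settings. For the difference of CCl4 effects (0 lower) the members numbered 0 to 13, and 2 with DESeq2, which also called 1 higher. Over all tested genes (41 lower) the counts were 0 to 347, and 251 with DESeq2. These fits tested 12178 to 14484 genes. Apart from the smaller sample sets, the causes were not tested. The labels do not say that replicate numbers pair samples. The replicate block left 8, 28, 1, 3 and 0 members called lower in these 5 comparisons. It left 16, 692, 33, 338 and 2 of all 13721 tested genes called lower. Scaling by library totals alone moved the median of all tested genes to 0.38 log2 for CCl4 in wild type, 0.20 in the knockout, 0.14 for the untreated genotypes and -0.16 for the difference of effects. The share of lower among all called genes was then 5.23%, 16.5%, 25.8% and 39.3%, against 32.5%, 36.6%, 37.5% and 27.3%. The Mup sum was then lower by -1.82 and -4.51 log2 after CCl4. Members under about 1 CPM are limited by depth.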
